A study of Mus musculus with 9 samples.

Results

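The Myc, Max and Mxd network was examined in RNA from mouse B-cell lymphomas. Its members were taken by gene symbol, namely Myc, Mycn, Max, Mxd1, Mxd3, Mxd4, Mxi1, Mnt, Mlx and Mga, and all 10 were found among the 41128 genes of the count table. The tumors came from mice carrying IµBcl6, a transgene in the immunoglobulin heavy chain locus that keeps Bcl6 on in B cells. Of 9 tumors, with 1 library each, 3 were Bcl6 tumors (IµBcl6 with Smc3 wt/wt) and 6 were Smc3/Bcl6 tumors (IµBcl6 with Smc3 wt/-). Smc3 encodes a subunit of the cohesin ring, and the question was whether tumors with 1 intact Smc3 allele differ in their RNA. Per the methods of the study, both genotypes also carried Cγ1-Cre, which acts in B cells entering the germinal center, so the deletion is limited to cells that have switched this Cre on. By their labels, both tumors with replicate number 1 came from the mesenteric lymph node, and the remaining 7 came from a lymph node that is not specified. The study describes lymphoma cells of the mesenteric lymph node for both genotypes, so the split by tissue used here rests on the labels alone. They give no age, and they do not state that each tumor came from a separate animal, so p-values measure the spread between these libraries.

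Myc is a transcription factor that binds DNA as a dimer with Max, at the motif CACGTG, called the E-box, and promotes the expression of genes for growth, ribosome production and metabolism. The Mxd proteins, Mxi1 and Mnt bind Max at the same motif and recruit Sin3 and histone deacetylase complexes, so they oppose Myc at shared targets, while Mga pairs with Max in a polycomb complex (PRC1.6) that silences germline genes and Mlx joins some of these proteins to the glucose-sensing MondoA (Mlxip) and ChREBP (Mlxipl). In germinal centers Myc is on in only a small part of the B cells, and it is activated in many aggressive B-cell lymphomas.

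The total count per tumor was between 10156728 and 17774577. The B-cell markers Cd79a, Cd79b, Ms4a1, Cd22 and Blnk were at 276 CPM or more in every tumor (CPM, counts scaled to library size by the TMM method), and Pax5 was between 2.96 and 55.9 CPM. Markers of other cells were present too, and the summed CPM of 7 T-cell markers ran from 289 to 2419 in Bcl6 and from 83.2 to 2220 in Smc3/Bcl6 tumors. Smc3 was at 126, 99.4 and 87.9 CPM in the Bcl6 tumors and had its lowest, median and highest level at 27.9, 106 and 111 CPM in the Smc3/Bcl6 tumors, so Smc3 RNA did not separate the genotypes in these counts. By RT-qPCR, a measure not made here, the study reports reduced Smc3 expression in Smc3/Bcl6 tumors. The value of 27.9 CPM was that of Smc3/Bcl6 tumor 2, and the other Smc3/Bcl6 tumors were at 89.5 to 111 CPM. This library stood apart from the rest, since the longer the exons of a gene, the lower its level relative to the 8 remaining tumors (Spearman correlation across genes -0.466, against -0.0303 to 0.273 in the other libraries), and values without it are given beside the results that it moved. Its TMM factor was also the lowest, 0.6929 against 0.9644 to 1.0976 in the other libraries. CPM is divided by this factor, so every level of tumor 2 was raised by it.

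The E-box was searched for in the 250 bases before the RefSeq starts of the genes (GRCm38.p6; the 6 letters read the same on both strands). RefSeq gave such a sequence for 9 of the 10 members, Myc being the missing entry, and 3 of the 9 held the motif, against 6.86% of 27025 genes with a sequence. These members are Mlx, with the first base of the motif at -40 from the start, Mnt at -123 and Mxd4 at -219. Among 25 established Myc targets outside ribosome production 11 held it, and Cdk4, Paics and the ribosome biogenesis gene Nop2 are shown with the members for comparison, chosen after their levels had been seen to follow Myc. The targets were listed by hand from textbook knowledge, which includes their E-boxes, so their share is a description. Among ribosome biogenesis genes 2 of 30 with a sequence held it, or 6.67%, close to the share of all genes, and Nop2 is one of them. Capitals mark the whole motif in the sequences, which hold up to 50 bases on either side and run 5′ to 3′ on the strand of the gene.
Mlx, chr11:101087200-101087269, plus strand: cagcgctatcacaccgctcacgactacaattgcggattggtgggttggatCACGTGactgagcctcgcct
Mnt, chr11:74830751-74830856, plus strand: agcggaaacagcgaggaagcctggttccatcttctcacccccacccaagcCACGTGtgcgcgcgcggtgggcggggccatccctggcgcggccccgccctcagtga
Mxd4, chr5:34187874-34187960, minus strand: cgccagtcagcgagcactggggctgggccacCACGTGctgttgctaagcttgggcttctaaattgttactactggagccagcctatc
Cdk4, chr10:127063313-127063418, plus strand: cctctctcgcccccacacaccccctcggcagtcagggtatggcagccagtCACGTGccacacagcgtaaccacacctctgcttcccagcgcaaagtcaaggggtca
Paics, chr5:76951052-76951154, plus strand: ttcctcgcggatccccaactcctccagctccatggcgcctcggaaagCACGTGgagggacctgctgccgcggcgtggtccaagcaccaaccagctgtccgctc
Nop2, chr6:125131773-125131862, plus strand: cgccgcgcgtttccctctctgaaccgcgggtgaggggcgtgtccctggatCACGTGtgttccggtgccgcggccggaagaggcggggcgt

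Myc and its partner Max were the members with the highest RNA per length, and neither passed the test of the genotypes. Myc (ENSMUSG00000022346.9, chromosome 15 of GRCm38 from 61985391 to 61990374) was at 201, 165 and 151 CPM in the 3 Bcl6 tumors, in the order of their numbers, against 127, 173 and 285 CPM (lowest, median, highest) in the 6 Smc3/Bcl6 tumors. The lowest and the highest Myc both belonged to Smc3/Bcl6 tumors, and the Bcl6 tumors lay within their range. The genotype means were 172 ± 25.8 CPM (SD, n = 3) and 188 ± 54.5 CPM (SD, n = 6), which is 0.13 as a log2 fold change with a standard error of 0.28 (the quasi-likelihood test of edgeR gave adjusted p = 1, by Benjamini-Hochberg over all genes). The exact two-sided permutation test over the 84 splits of 9 tumors into 3 and 6 gave p = 0.762, where 0.0238 is the smallest possible. In bulk tumors, fewer cells with Myc RNA and less Myc RNA per cell cannot be told apart. The highest Myc was in Smc3/Bcl6 tumor 2, and without it the log2 fold change was -0.01 (standard error 0.18). The rank of tumor 2 depends on its low TMM factor of 0.6929. In the 2 tumors labelled mesenteric lymph node Myc was at 201 CPM (Bcl6) and 211 CPM (Smc3/Bcl6), and these had the lowest summed CPM of macrophage markers, 288 and 150 CPM, against 1061 to 2972 CPM in the others (7 of 7 markers in the table were tested). The highest of these sums, 2972 CPM, was that of Smc3/Bcl6 tumor 2, which also had the highest Myc. The part of other cells in the level of Myc was not tested.

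Max (ENSMUSG00000059436.7), the obligate partner of Myc, was at 197, 170 and 158 CPM in the Bcl6 tumors and at 111, 158 and 311 CPM (lowest, median, highest) in the Smc3/Bcl6 tumors. On the log2 scale it was higher by 0.05 (standard error 0.32), and the exact permutation p was 0.881. Max followed Myc from tumor to tumor: per kilobase of exon, Myc was above Max in 9 of 9 tumors, by a ratio of 1.21 to 1.53, although Myc itself varied 2.24-fold. Exon length here covers all annotated exons, 2717 bases for Myc and 3598 for Max. The longest coding transcript of Max is shorter than that of Myc (1893 against 2289 different 50-base stretches). Which of the 2 is higher therefore depends on the length used. Mycn, the paralog of Myc used mainly in neural and embryonic tissue, was nearly absent. It had 20 counts over all tumors, 0 to 7 in each, and was not tested. In the 4 tumors with 0 counts, a level of up to 0.208 to 0.317 CPM (3 counts) remains possible, for counting error only.

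**Figure D1:**
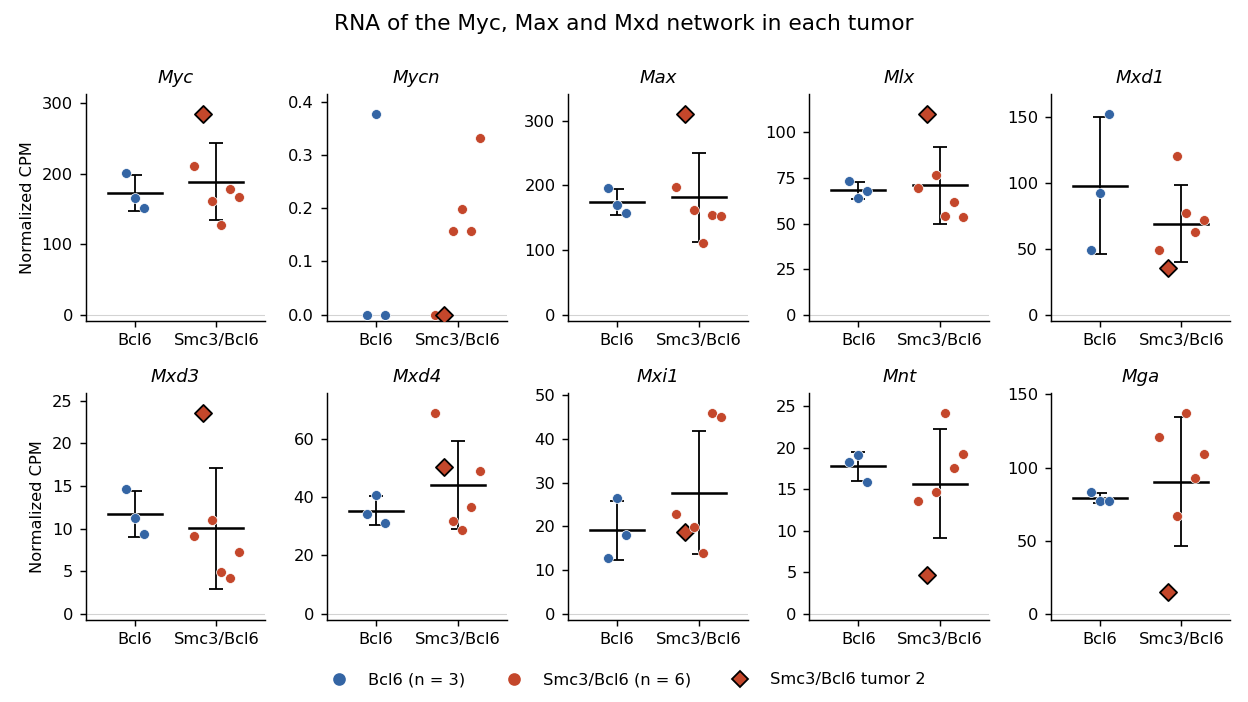
Normalized CPM (vertical axes, which differ between panels) of the 10 members in each tumor, with Bcl6 tumors in blue, Smc3/Bcl6 tumors in red and Smc3/Bcl6 tumor 2 as a diamond. Lines and bars give the mean and SD of each genotype (not drawn for Mycn), and in every panel the tumors of the 2 genotypes overlap.

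The genes that oppose Myc varied more between tumors than between genotypes. Mxd1 (ENSMUSG00000001156.7), a repressor that rises as blood cells mature, was at 48.9, 92.7 and 152 CPM in the Bcl6 tumors and at 35.3, 67.0 and 120 CPM (lowest, median, highest) in the Smc3/Bcl6 tumors, with a log2 fold change of -0.50 (standard error 0.42; exact permutation p = 0.357). It was low, at 48.9 and 48.7 CPM, in both tumors labelled mesenteric lymph node, which also had the lowest summed macrophage markers given above. Its lowest level, 35.3 CPM, was in Smc3/Bcl6 tumor 2, which had the highest sum of those markers (2972 CPM). The part of macrophages in the level of Mxd1 was not tested. Without Bcl6 tumor 1, or without Smc3/Bcl6 tumor 3, Mxd1 passed the thresholds of the study, a log2 fold change of more than 0.56 in size together with an unadjusted p under 0.1, with log2 fold changes of -0.89 and -0.79 (standard errors 0.45 and 0.42, adjusted p = 1 from the edgeR test for both). Without Bcl6 tumor 3, which had the highest Mxd1, the log2 fold change was -0.034 (standard error 0.46), and without Smc3/Bcl6 tumor 2 it was -0.38. Mxi1 (ENSMUSG00000025025.8) was at 12.9, 26.4 and 17.9 CPM against 13.9, 21.4 and 46.0 CPM. Its log2 fold change of 0.54 (standard error 0.45; exact permutation p = 0.405) was the highest among the members with all 9 tumors, and the values of Smc3/Bcl6 tumors 5 and 6, 46.0 and 45.1 CPM, lay above all the others. It was 0.34 without Smc3/Bcl6 tumor 5, 0.35 without Smc3/Bcl6 tumor 6, 0.28 without Bcl6 tumor 1 and 0.82 without Bcl6 tumor 2. With the replicate block, which leaves out Smc3/Bcl6 tumors 4 to 6, Mxi1 was at 0.13 and Mxd4 at 0.41.

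Mxd3 (ENSMUSG00000021485.8), the family member used by dividing cells, was at 14.6, 11.2 and 9.34 CPM in the Bcl6 tumors and at 4.26, 8.16 and 23.6 CPM (lowest, median, highest) in the Smc3/Bcl6 tumors, which gave a log2 fold change of -0.23 with a standard error of 0.53. The highest value was that of Smc3/Bcl6 tumor 2, and all of the other Smc3/Bcl6 tumors were below the 11.2 CPM of Bcl6 tumor 2. Without tumor 2, Mxd3 passed the same thresholds, with a log2 fold change of -0.66 (standard error of 0.36; edgeR gave adjusted p = 0.985).

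Mxd4 (ENSMUSG00000037235.8), a repressor found mostly in resting cells, was at 34.2, 40.8 and 31.1 CPM against 28.7, 42.8 and 68.9 CPM, with a log2 fold change of 0.32 (standard error 0.31). Mnt (ENSMUSG00000000282.7), the broadly expressed antagonist, was at 18.2, 19.1 and 15.9 CPM against 4.65, 16.1 and 24.2 CPM, with a log2 fold change of -0.18 (standard error 0.43). For Mnt this was 0.023 without Smc3/Bcl6 tumor 2, where it was lowest, and -0.86 with the replicate block (standard error 0.55), in which tumor 2 is 1 of 3 Smc3/Bcl6 tumors, and neither passed the thresholds. For both genes the Bcl6 tumors fell inside the range of the Smc3/Bcl6 tumors. Per kilobase of exon, Myc RNA exceeded the sum of these 5 antagonists in each tumor, by a ratio of 2.26 ± 0.858 (SD, n = 3) in Bcl6 and 2.64 ± 0.91 (SD, n = 6) in Smc3/Bcl6 tumors, or 2.32 ± 0.507 (SD, n = 5) without tumor 2, and the genotypes overlapped. Mxd1 made up 20.3% to 61.2% of that sum. These ratios and shares depend on the exon length used.

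Mlx (ENSMUSG00000017801.10) was the steadiest member, at 73.2, 63.9 and 67.7 CPM in the Bcl6 tumors and at 53.4, 65.6 and 110 CPM (lowest, median, highest) in the Smc3/Bcl6 tumors, with a log2 fold change of 0.06 (standard error 0.27). Of its exonic bases 19.3% are shared with Psmc3ip on the opposite strand, and the strand setting of the counting is not given in the sources used here, so the level of Mlx is uncertain to that extent. Mlxip, the partner of Mlx with the higher RNA, was at 0.20 on the log2 scale of the genotype difference (standard error 0.53), and Mlxipl had too few counts to be tested. Of 5 genes known to be driven by these partners, among them Txnip and Arrdc4, which restrain glucose uptake, 0 passed the thresholds.

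Mga (ENSMUSG00000033943.10), the largest member, was at 83.2, 77.2 and 76.9 CPM in the Bcl6 tumors and at 14.8, 101 and 137 CPM (lowest, median, highest) in the Smc3/Bcl6 tumors. Its difference between genotypes was 0.19 on the log2 scale (standard error 0.53), and the SD of log2 CPM was 0.06 among Bcl6 tumors and 1.19 among Smc3/Bcl6 tumors. The low value was again that of tumor 2, and without it the log2 fold change was 0.43 (standard error of 0.22; edgeR gave adjusted p = 0.985), below the fold threshold. The 10 other PRC1.6 genes had 0 past the thresholds and a median log2 fold change of -0.10, or -0.17 without tumor 2. Of 13 germline genes that this complex silences, 8 with an E-box in the searched bases, only Tdrkh, Stag3, Smc1b and Zcwpw1 had counts enough to be tested, 0 passed, and Mael, Slc25a31 and Tex101 had 0 counts in all 9 tumors.

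Across the network, 0 of the 9 members tested passed the thresholds, against 2.15% of the 14057 genes tested, and 0 had groups that did not overlap, against 0.484% of those genes. At an adjusted p below 0.05 there were 0 genes among all tested (0%), in the edgeR test, and 79 genes (0.562%) with an unadjusted p below 0.05, none of them a member. Log2 fold changes of the members ran from -0.50 to 0.54 with a median of 0.06, the median over all genes being 0.06 too. Each was smaller than 2 standard errors, and for 5 of 9 members the difference in mean log2 CPM was also below the SD of each genotype. With a median standard error of 0.46 over all genes, differences of this size were not detectable with 3 and 6 tumors. With the tissue label as a covariate, 0 members passed as well.

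**Figure D2:**
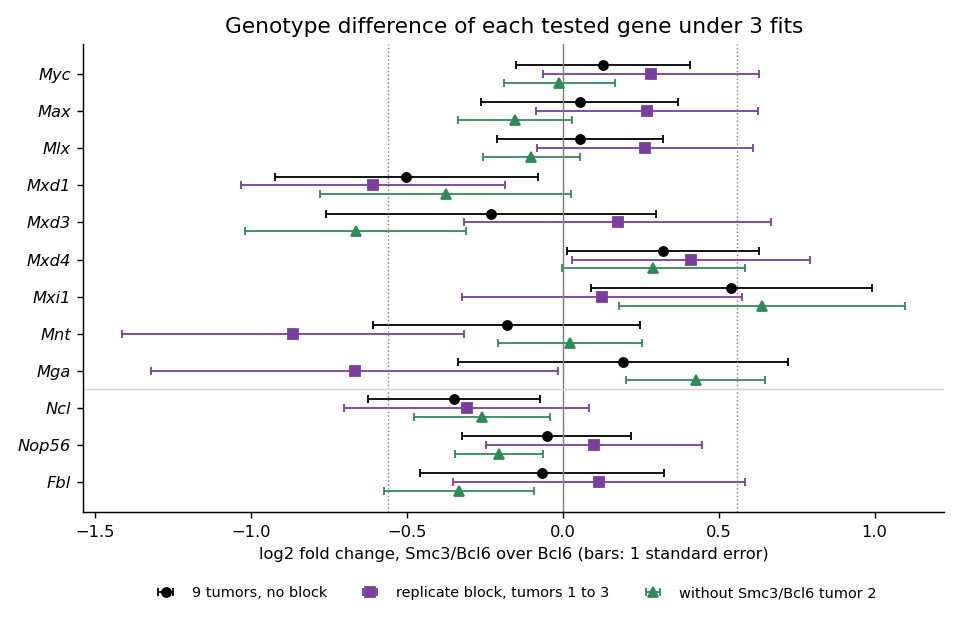
Log2 fold change of Smc3/Bcl6 over Bcl6 tumors (horizontal axis, bars 1 standard error) for 9 members and for Ncl, Nop56 and Fbl, with all 9 tumors (black circles), blocked by replicate number (purple squares) and without Smc3/Bcl6 tumor 2 (green triangles). Dotted lines mark the fold threshold of 0.56, and Mnt and Mga move most between the fits.

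Levels were compared between genes per kilobase of exon, as the mean over 9 tumors. Myc stood first with 67.3 ± 16.8 CPM per kb (SD, n = 9), followed by Max with 49.8 ± 15.4 and Mlx with 35.0 ± 8.49. A gap followed, with Mxd1 at 11.1 ± 5.33 CPM per kb and then Mga at 5.65, Mxd4 at 4.87, Mxd3 at 4.47, Mxi1 at 3.64, Mnt at 3.53 and Mycn at 0.0412 CPM per kb. Of neighbours in this order, only Mlx against Mxd1 and Mnt against Mycn had ranges over the tumors that did not overlap, Myc exceeded Max and Max exceeded Mlx in 9 of 9 tumors, and the order from Mga to Mnt changed between tumors.

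Among the Smc3/Bcl6 tumors, tumor 2 had the highest Myc, Max, Mlx and Mxd3 and the lowest Mxd1, Mnt and Mga, while the extremes of Mxd4 and Mxi1 were those of other tumors. In tumor 2 the long genes Mga (15.3 kb of exon) and Mxd1 (7.07 kb) lay below the mean of the other 8 tumors by -2.64 and -1.14 on the log2 scale. The short genes Mxd3 (2.37 kb), Mlx (2.00 kb) and Myc (2.72 kb) lay above it by 1.48, 0.77 and 0.76, as did Max (3.60 kb) by 0.95. Mnt (4.63 kb, -1.88) and Mxd4 (8.48 kb, 0.38) did not follow their length. With an offset for exon length and GC content in every tumor, the log2 fold changes of Myc, Max and Mga were 0.03, 0.04 and 0.18.

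**Figure D3:**
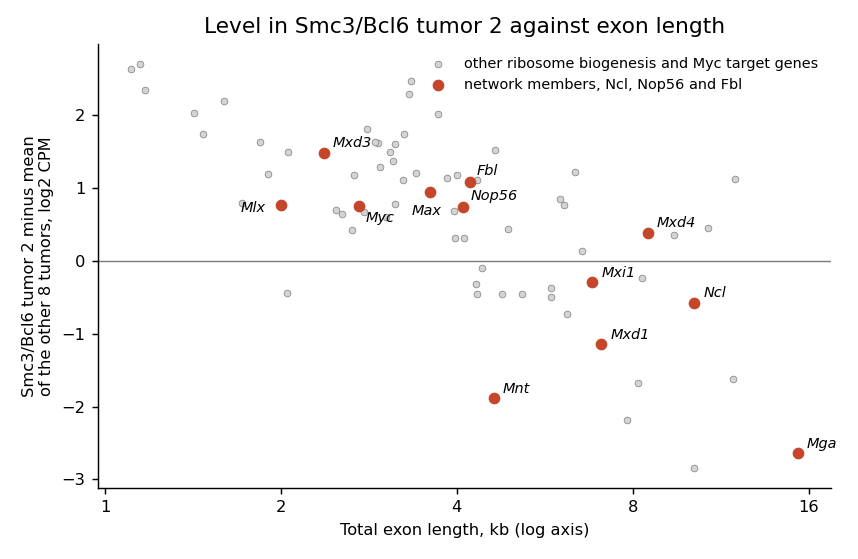
Deviation of Smc3/Bcl6 tumor 2 from the mean of the other 8 tumors in log2 CPM (vertical axis) against total exon length in kb (horizontal log axis) for the members, Ncl, Nop56 and Fbl (red, named) and other ribosome biogenesis and Myc target genes (grey). Mga, the longest, is lowest among the named genes at -2.64 and Mxd3, one of the shortest, is highest at 1.48.

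Ncl, Nop56 and Fbl stand for the ribosome branch of the Myc program. Ncl encodes nucleolin, the main protein of the nucleolus, while Nop56 and Fbl (fibrillarin) belong to the particle that methylates ribosomal RNA. Ncl was at 897, 656 and 622 CPM in the Bcl6 tumors and at 416, 589 and 702 CPM (lowest, median, highest) in the Smc3/Bcl6 tumors, with a log2 fold change of -0.35 (standard error 0.28), or -0.26 without tumor 2. Nop56 was at 230, 214 and 160 CPM against 158, 175 and 303 CPM, with a log2 fold change of -0.05 (standard error 0.27), or -0.20 without tumor 2. Fbl was at 10.6, 9.81 and 7.36 CPM against 6.24, 7.52 and 16.8 CPM, with a log2 fold change of -0.07 (standard error 0.39), or -0.33 without tumor 2. For none of these genes did the genotypes separate. The level of Fbl is uncertain, because 73.0% of the 50-base words of its transcripts also occur in other genes, and for Nop56 the share is 37.6%.

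Of the 35 ribosome biogenesis genes listed, all of them tested, 0 passed the thresholds, and their median log2 fold change was -0.03, or -0.15 without tumor 2. When tumors 1 to 3 of each genotype were blocked by number, 1 of them passed, against 2.24% of 13360 genes tested, namely Utp20, with a log2 fold change of -1.12 (standard error of 0.52; edgeR gave adjusted p = 0.983). Utp20 processes the small ribosomal subunit, has 10.2 kb of exon and lay -2.84 below the other tumors in tumor 2. By gene set enrichment over ranked genes, a measure not made here, the study reports induced MYC target sets in Smc3/Bcl6 lymphomas. The counts of single genes given here are a different measure, on other lists. Of 28 other Myc targets, among them Odc1, Cdk4, Ldha and Srm, 0 passed, with a median log2 fold change of 0.16, or -0.20 without tumor 2. The same held for 12 Myc cofactors, 11 genes of the Sin3 and histone deacetylase complexes and 13 genes that set the stability of Myc protein, with 0 past the thresholds and medians of -0.04, -0.15 and -0.19, or -0.04, -0.16 and -0.10 without tumor 2. Among the last, Pim2, a kinase that stabilizes Myc, passed with the block (log2 fold change 0.91, standard error of 0.46; edgeR gave adjusted p = 0.983), against 0.74 without it. Without Smc3/Bcl6 tumor 2 it was Aurka (-0.70), where 533 of 13942 genes passed. Without Bcl6 tumor 2 it was Trim32 (-0.56), where 245 of 14525 genes passed. With limma quality weights it was Fbxw7 (0.74), whose product marks Myc for degradation, in a fit where 1644 of 14057 genes passed.

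Across the 9 tumors, Myc RNA rose with Nop56 and Fbl but not with Ncl, and this picture turned when tumor 2 was left out. For 7 relations of members with other genes or scores, Pearson correlations of log2 CPM were computed with exact two-sided permutation tests over all pairings of the tumors, and p-values were adjusted over the 7. Myc against Nop56 gave r = 0.815 (exact permutation p = 0.00906, adjusted 0.0208; Spearman rho = 0.683, exact p = 0.0503, adjusted 0.0881), and Myc against Fbl gave r = 0.854 (exact permutation p = 0.00507, adjusted 0.0178; rho = 0.717, exact p = 0.0369, adjusted 0.086). Myc against Ncl gave r = -0.000455 (exact permutation p = 0.999, adjusted 0.999; rho = 0.2, exact p = 0.613). Against all 14049 other genes tested, these r stood at percentiles 88.1, 91.5 and 53.8.

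Without Smc3/Bcl6 tumor 2, r was 0.532 for Nop56, 0.62 for Fbl and 0.752 for Ncl (exact permutation tests over 8 tumors, adjusted p = 0.204, 0.17 and 0.0864), so none of the 3 relations passed 0.05 after adjustment. Without the 2 tumors farthest from the median of Myc, Smc3/Bcl6 tumors 2 and 4, r was 0.376, 0.443 and 0.463. These tumors had the highest and the lowest Myc, and leaving out such extremes tends to lower r for any linear relation. The lower r of Nop56 and Fbl therefore cannot tell whether their relations with Myc rest on those tumors alone. In the 6 Smc3/Bcl6 tumors alone r was 0.851 for Nop56, 0.898 for Fbl and -0.0769 for Ncl (exact permutation, adjusted p = 0.0745, 0.0486 and 0.999), and the 3 Bcl6 tumors were too few for a value. Among the 7 tumors labelled lymph node r was 0.879, 0.88 and -0.286 (exact permutation, adjusted p = 0.0562, 0.0562 and 0.656), and 0.398, 0.361 and 0.665 without tumor 2, while the mesenteric label has 2 tumors only. Without Smc3/Bcl6 tumor 4, which had the lowest Myc, the adjusted p of each of the 4 relations that passed 0.05, the other 2 given below, was 0.0524.

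**Figure D4:**
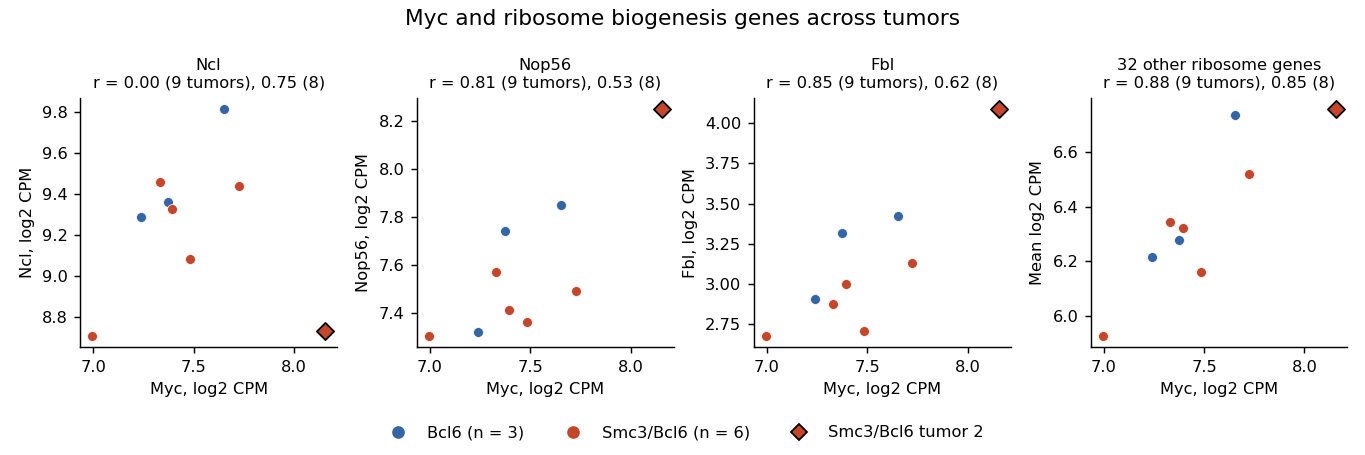
Log2 CPM of Myc (horizontal axes) against that of Ncl, Nop56 and Fbl and against the mean log2 CPM of 32 other ribosome biogenesis genes (vertical axes), 1 point per tumor. Smc3/Bcl6 tumor 2 (diamond) has the highest Myc, Nop56 and Fbl and a low Ncl, and the titles give r over 9 tumors and over the 8 other tumors.

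The mean log2 CPM of the other 32 ribosome biogenesis genes followed Myc more closely, with r = 0.881 (exact permutation p = 0.00164, adjusted 0.0115; rho = 0.767, exact p = 0.0214, adjusted 0.0749). It was 0.855 without tumor 2 (adjusted p = 0.0372), 0.936 in the Smc3/Bcl6 tumors alone (adjusted p = 0.0486), and 0.926 among the tumors labelled lymph node (adjusted p = 0.0562), by the same exact permutation test. Without the 2 tumors farthest from the median of Myc it was 0.736 (exact permutation p = 0.0573), which did not pass 0.05, with the same limit of a narrower range of Myc. Gene by gene, 26 of the 35 ribosome biogenesis genes had r above 0 with Myc over 9 tumors, with a median of 0.805 (46.2% above 0 and a median of -0.0879 over all genes), and over the 8 tumors without tumor 2 all 35 did, with a median of 0.721 (50.9% and 0.018 over all genes). The 9 with r below 0 over 9 tumors, among them Ncl, Polr1a, Heatr1 and Utp20, had 4.32 to 11.9 kb of exon (median 5.805 kb). The range of the other 26, 1.109 to 11.96 kb (median 3.181 kb), covers this, and Wdr12, with 11.96 kb, had r = 0.938. The median deviation in tumor 2 was -0.49 log2 CPM for the 9 and 0.94 for the 26. Tumor 2 had the highest Myc and so weighs on the sign of r, and this contrast follows in part from the split itself.

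The genes most like Myc over the 9 tumors, among 9148 genes with a mean of at least 10 CPM, were Arpc1a, Gipc1, Tbrg4, Grhpr and Pwp1, with r from 0.976 to 0.978, or 0.942 to 0.964 without tumor 2. All of them were, like Myc, highest in tumor 2. This ranking is a description of levels that share library, depth and length effects.

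Mxd3 followed the genes of cell division. Its log2 CPM against the mean log2 CPM of 15 such genes gave r = 0.802 (exact permutation p = 0.0119, adjusted 0.0208; rho = 0.883, exact p = 0.00307, adjusted 0.0215). It was 0.835 without tumor 2 (exact permutation, adjusted p = 0.0372) and 0.976 without the 2 tumors farthest from the median of Mxd3, Smc3/Bcl6 tumors 2 and 5 (exact permutation p = 0.00139). It was 0.80 in the 6 Smc3/Bcl6 tumors and 0.818 among the tumors labelled lymph node (exact permutation, adjusted p = 0.107 and 0.0562). The highest division score was that of Bcl6 tumor 1 and the lowest that of Smc3/Bcl6 tumor 4, where Mxd3 was at 14.6 and 4.91 CPM. The genes most like Mxd3 were Prmt5, Smu1, Ppp1r8, Exosc9 and Haus4, with r from 0.967 to 0.977.

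Of the 15 cell division genes, 2 passed the thresholds with a lower level in Smc3/Bcl6 tumors, as did 0.868% of all genes tested. The list median was -0.40, or -0.59 without tumor 2, and 1 of the 15 had a log2 fold change above 0, against 57.43% of all genes tested. Top2a, which untangles DNA at division, was at 443, 258 and 247 CPM in the Bcl6 tumors and at 79.8, 175 and 245 CPM (lowest, median, highest) in the Smc3/Bcl6 tumors, which did not overlap (log2 fold change -0.96, standard error of 0.40; edgeR gave adjusted p = 1). Bub1, of the spindle checkpoint, was at 97.6, 43.8 and 24.5 CPM against 8.17, 25.6 and 46.7 CPM (log2 fold change -1.04, standard error of 0.52; edgeR gave adjusted p = 1). Without Bcl6 tumor 1, which was highest in both, 0 of the 15 passed (log2 fold changes -0.69 and -0.39). Without Smc3/Bcl6 tumor 2, 4 passed with a lower level, namely Top2a, Mcm5, Ccnb2 and Aurkb, where 1.39% of all genes passed with a lower level and 2.43% with a higher one. Bub1 did not pass without Smc3/Bcl6 tumor 2, 5 or 6, with log2 fold changes between -1.03 and -0.97. Nor did Bub1 pass with the tissue label as a covariate (-0.71) or with the offset for length and GC content (-0.90). With the replicate block the 2 that passed were Top2a and Mki67, where 1.9% of all genes passed with a lower level, and Top2a did not pass with the block and the offset together (-0.58).

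Mxd1 and Mxd4 were set against cells known to use them, and neither relation passed the test. Mxd1 against the mean of 7 neutrophil markers gave r = 0.306 (exact permutation p = 0.424, adjusted 0.494; rho = 0.2), which was -0.19 without the 2 tumors farthest from its median and -0.141 without Bcl6 tumor 3, the tumor with the highest value of both. The summed neutrophil markers ran from 36.8 to 1804 CPM in Bcl6 and from 27.9 to 807 CPM in Smc3/Bcl6 tumors, with 0 of 7 past the thresholds. Mxd4, against 7 T-cell markers, gave r = -0.405 (exact permutation p = 0.279, adjusted 0.391; rho = -0.3), which was -0.179 without the 2 tumors farthest from its median and 0.0291 without Smc3/Bcl6 tumor 1, where Mxd4 was highest and the T-cell markers lowest. Neither relation passed in the 6 Smc3/Bcl6 tumors or among those labelled lymph node.

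**Figure D5:**
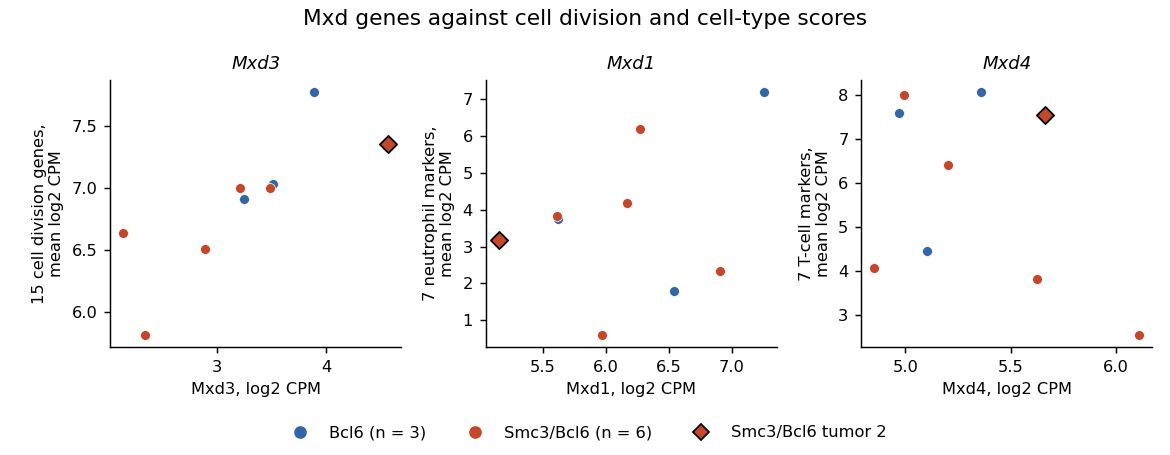
Log2 CPM of Mxd3, Mxd1 and Mxd4 (horizontal axes) against the mean log2 CPM of 15 cell division genes, 7 neutrophil markers and 7 T-cell markers (vertical axes), 1 point per tumor. Mxd3 rises with the division score, from 2.14 to 4.57 log2 CPM, while the other 2 panels show no order.

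Among the other cell-type lists, the erythroid genes Slc4a1 and Klf1 passed the thresholds with a higher level in Smc3/Bcl6 tumors, as did 1.28% of all genes tested, with log2 fold changes of 4.69 and 3.47 (standard errors 2.31 and 1.84; adjusted p = 1 from the edgeR test). They were high in Smc3/Bcl6 tumors 4 and 6 only, where Slc4a1, the band 3 protein of red cells, was at 410 and 274 CPM against at most 9.06 CPM in the others, and their exact permutation p were 0.643 and 0.714. With the replicate block, which leaves those tumors out, Slc4a1 was at -0.37 and did not pass, and Klf1 was not tested. Neither gene passed without Bcl6 tumor 1, Bcl6 tumor 2, Smc3/Bcl6 tumor 4 or Smc3/Bcl6 tumor 6 (log2 fold changes of 3.62 to 4.37 for Slc4a1 and 2.25 to 3.29 for Klf1), and Klf1 did not pass without Bcl6 tumor 3 either (3.82). Summed B-cell, plasma cell, T-cell, macrophage, neutrophil and stromal marker levels overlapped between genotypes, with 0 genes past the thresholds. With the replicate block 2 T-cell, 2 macrophage and 1 neutrophil marker passed with a lower level, as did 1.9% of all genes, while 0.337% passed with a higher one.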

How the data were processed

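RNA of 9 tumors, 3 Bcl6 and 6 Smc3/Bcl6, was sequenced with the Illumina TruSeq kit. The authors ran the nf-core RNA-seq pipeline, with STAR on mm10 and Gencode transcripts and featureCounts for reads per gene, and the deposited values are raw counts. The strand setting is not given in the sources used here. Tumors were assigned to genotypes by their labels. Positions, exon lengths and GC content came from a later GENCODE release on the same build, which held 97.9% of the gene identifiers.

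Counts were scaled by TMM, genes with low counts in both genotypes were removed (filterByExpr), and the genotypes were tested by quasi-likelihood in edgeR 4.0.16 (R 4.3.3), with p-values adjusted by Benjamini-Hochberg over 14057 genes. The thresholds were those of the study, a log2 fold change of more than 0.56 in size and an unadjusted p under 0.1. Single values and correlations were tested by exact permutation, on log2 CPM with a prior count of 2. The scripts were tested on simulated counts. No 2 libraries agreed within counting noise. Totals of 10156728 counts or more leave counting error small beside the spread between tumors, except for genes with few counts.

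The named genes were the 10 members, Ncl, Nop56 and Fbl, up to 3 genes per list and direction past the thresholds with the smallest p, and the 5 genes most correlated with Myc and with Mxd3 among those with at least 10 CPM. Some genes of the lists are not reported here by name. Other genes named were chosen after their values were seen, as examples of a list. Members and the 18 lists were chosen with earlier results of these data known.

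Replicate numbers 1 to 3 occur in both genotypes, and no label ties a number to a litter or day. Across genes, correlations between tumors sharing a number were 0.443, 0.113 and 0.155 after each genotype's mean was removed. Of the pairs with unlike numbers, Bcl6 tumor 2 and Smc3/Bcl6 tumor 3 reached 0.356, above 2 of the matched pairs, and the others were between -0.454 and 0.0171. With every matched pair above 0.1, the number was also used as a block over these 6 tumors, a pairing that comes from the labels' numbers alone. Other alternatives were DESeq2 1.42.0, limma 3.58.1 with quality weights, other normalizations, filters and prior counts, the tissue label as a covariate, an offset for exon length and GC content (lowess span 0.3), a p threshold of 0.05 and each tumor left out in turn. The relations within the tumors labelled lymph node were added after the data were seen.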

Additional observations from a re-analysis of the deposited data

Results flagged for a closer look

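Within the 6 Smc3/Bcl6 tumors, 22 measures (members, Ncl, Nop56, Fbl, scores and 1 ratio) were examined for a tumor far from the rest by Dixon's gap ratio, with a critical value of 0.625, and chance alone gives about 1 such group in 20. There were 5. Smc3/Bcl6 tumor 2 lay far below the others for Mnt (gap ratio 0.647, 4.65 CPM against 13.6 to 24.2 CPM) and Mga (0.675, 14.8 CPM against 66.8 to 137 CPM), and far above them for Nop56 (0.718, 303 CPM against 158 to 190 CPM) and Fbl (0.68, 16.8 CPM against 6.24 to 8.59 CPM). Smc3/Bcl6 tumor 1 lay below the others on the mean log2 CPM of macrophage markers (0.76, 3.59 against 7.10 to 8.21), and it is the only one of the 6 labelled mesenteric lymph node, so tissue and tumor cannot be told apart there.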

How the results depend on the processing

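The log2 fold change of Myc stayed short of the thresholds under every alternative run and was -0.011 to 0.20 with 1 tumor left out, being negative only without Smc3/Bcl6 tumor 2. The number of members past the thresholds was 0 to 1 with 1 tumor left out. Mxd1 passed without Bcl6 tumor 1 (as did 366 of 14637 genes) or Smc3/Bcl6 tumor 3 (624 of 13830). Mxd3 passed without Smc3/Bcl6 tumor 2 (533 of 13942). The number was 1 with limma quality weights (Mxd3, -0.60), where 1644 of 14057 genes passed. With the replicate block and the length and GC offset together it was also 1 (Mxd4, 0.69), where 319 of 13360 genes passed. For the ribosome biogenesis genes the number was 1 with limma quality weights (Rrp12). It was also 1 with the block (299 of 13360 genes passed) and 1 with the block and the offset (Utp20 in both). The pairing of tumors by replicate number changed no other call of a member, Ncl, Nop56 or Fbl, with Myc at 0.28 under the block, but it turned the sign of Mxd3 (0.18), Mga (-0.67), Nop56 (0.10), Fbl (0.12) and Slc4a1 (-0.37). With the block and the offset, Mga was at -0.12, Ncl 0.11, Nop56 0.12, Fbl 0.13 and Slc4a1 -0.24. Signs also turned for Max (-0.096) and Mlx (-0.10) with quality weights, and for Mlx with the offset (-0.058). With 1 tumor left out, Max was at -0.15 to 0.14 (below 0 without Bcl6 tumor 3 or Smc3/Bcl6 tumor 2), Mlx at -0.10 to 0.13 (below 0 without Bcl6 tumor 2 or Smc3/Bcl6 tumor 2 or 3), Mnt at -0.35 to 0.023 (above 0 without Smc3/Bcl6 tumor 2) and Fbl at -0.33 to 0.011 (above 0 without Smc3/Bcl6 tumor 5). The cause was not tested.

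With 1 tumor left out, r was 0.532 to 0.886 for Myc and Nop56, 0.62 to 0.914 for Myc and Fbl, -0.459 to 0.752 for Myc and Ncl, 0.824 to 0.933 for Myc and the other ribosome biogenesis genes, 0.774 to 0.863 for Mxd3 and cell division, -0.141 to 0.463 for Mxd1 and neutrophil markers, and -0.626 to 0.0291 for Mxd4 and T-cell markers. For Myc and Ncl, r was 0.015 without Bcl6 tumor 2, 0.012 without Bcl6 tumor 3, 0.04 without Smc3/Bcl6 tumor 3, 0.00816 without Smc3/Bcl6 tumor 6, 0.0828 on deviations from the genotype means and 0.657 with the offset. The offset also took r to 0.422 for Nop56 and 0.514 for Fbl, past no threshold. In the Smc3/Bcl6 tumors alone r was 0.851 for Nop56 and 0.80 for Mxd3. Among the tumors labelled lymph node r was 0.879 for Nop56, 0.88 for Fbl, 0.926 for the other ribosome biogenesis genes and 0.818 for Mxd3, and without tumor 2 it was 0.398, 0.361, 0.739 and 0.748, and 0.665 for Ncl, none below 0.05 after adjustment. Counts over all genes moved by more than 1.5 times with limma quality weights (1644 past the thresholds against 302), with no filter on low counts (1388), without Smc3/Bcl6 tumor 2 (533) or 3 (624), and without tumor 6 (159). The limits are the 3 Bcl6 tumors, the length trend of 1 library and the mixed cells of bulk tissue.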
